A study of Homo sapiens with 4 samples.

Results

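The small (40S) subunit of the ribosome was followed through the mRNAs of its protein genes in Huh7, a human line derived from a hepatocellular carcinoma. Genes were taken by symbol as RPS followed by a number, without the RPS6 kinases, the Y-linked RPS4Y copies and RPS19BP1, and RPSA, FAU and RACK1 were added. This gave 32 genes of the 18806 in the table. RPS9 and RPS18 are not analysed here. All cells came from 1 clone that expressed Cas9 and were made stable with a lentiviral guide and hygromycin B. The control group carried a non-targeting guide (sgNS, 2 libraries, genotype given as WT), and the other group carried a METTL16 guide (METTL16 KO, 2 libraries, which the sample labels call a knockdown). The 2 libraries of a group are given as biological replicates, and nothing says that they came from separate clones or guides, so p-values measure the spread between these samples.

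The 40S subunit binds the mRNA, scans it for a start codon and holds the decoding centre in which codon and anticodon are matched. Its proteins coat one 18S rRNA, with a head and a beak above a body and a platform, and the mRNA runs between head and body from an entry to an exit side. The subunit is built in the nucleolus and the cytoplasm, and most mRNAs of its proteins begin with a C followed by a run of C and T (in RNA, C and U). This terminal oligopyrimidine (TOP) start couples their translation to growth signals. METTL16 is an RNA methyltransferase, and the study asked what its loss does to gene expression and translation in liver cancer cells.

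Expression is given in TPM, a unit that is scaled for transcript length and sums to 1000000 in each library. A value is thus a share of all mRNA. Levels of different genes can be compared only as far as reads were assigned to the right gene, which was not tested. Each gene was tested with limma on log2(TPM + 0.1) among 11971 genes (mean over the libraries of at least 1 TPM), and "rose" and "fell" are used for a Benjamini-Hochberg adjusted p under 0.05 over those genes. Fold changes are METTL16 KO against sgNS on this log2 scale. The depth is unknown, since read counts cannot be had from TPM. For a single value from 2 libraries per group, the two-sided exact permutation test has a smallest p of 0.33. METTL16 itself stood at 26.3 and 25.1 TPM in sgNS against 17.6 and 18.8 TPM in METTL16 KO (log2 fold change -0.50, standard error 0.062, limma adjusted p = 2.4e-05). A guide need not remove the transcript, and protein was not measured here. The hepatoma marker ALB was at 7437 and 7537 TPM in sgNS against 10079 and 9882 TPM in METTL16 KO. Of 8 such markers 6 rose and 2 (APOB and TF) fell, and of 6 genes of blood, vessel and stromal cells all but PECAM1 were under 1 TPM in every library.

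A shift of all genes touches every value that follows. The median gene of the 11971 tested had a log2 fold change of 0.16, and the histone genes of the HIST clusters took 110377 and 110280 of the 1000000 TPM in sgNS but 68095 and 69319 in METTL16 KO. Their part in the 40S values was measured by leaving them out and rescaling, which gave a median of -0.24 over the 40S genes and of 0.10 over all genes. In bulk RNA a lower share of the mRNA and fewer molecules per cell cannot be told apart.

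The 40S mRNAs were lower in METTL16 KO as a group, by small and unequal amounts. All 32 genes passed the filter, and 27 of them fell, 3 rose (RPS26, FAU and RPS27L) and 2, RPS29 among them, did not pass the test. Over all genes tested, 25.6% fell and 50.1% rose. The median log2 fold change was -0.17 over the 40S genes and 0.16 over all genes. For 27 of the 32 genes both METTL16 KO values were under both sgNS values, against 30.7% of all genes, and for 4 they were above, against 56.8% of all genes. Fold changes ran from -0.92 to 0.18. RACK1 was the one gene that changed at least 1.5-fold, and 10 genes changed by more than 20% of their sgNS mean. Replicates lay close together: the median log2 difference between replicates was 0.023 over the 40S genes and the largest was 0.24, for RPS27L in sgNS.

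The rises depended on the scaling, and the falls did so less. After median-ratio scaling, which sets the median gene near 0, 30 of the 32 genes fell and 0 rose, against 36.5% and 36.4% of all genes, and the 40S median was -0.34. After quantile normalization, which forces the same distribution of values on every library, 16 fell and 10 rose, against 35.5% and 36.9% of all genes, and the median was -0.04. Of the 27 genes that fell on the deposited scale, 27 also fell after median-ratio scaling and 15 after quantile normalization. Of the 28 genes described singly, 12 fell in all 14 alternatives run without a fold threshold. These were RACK1, RPS3A, RPS21, RPS23, RPSA, RPS12, RPS27A, RPS16, RPS20, RPS24, RPS7 and RPS3. With a 1.5-fold threshold added, 1 of the 32 genes fell, RACK1.

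**Figure D1:**
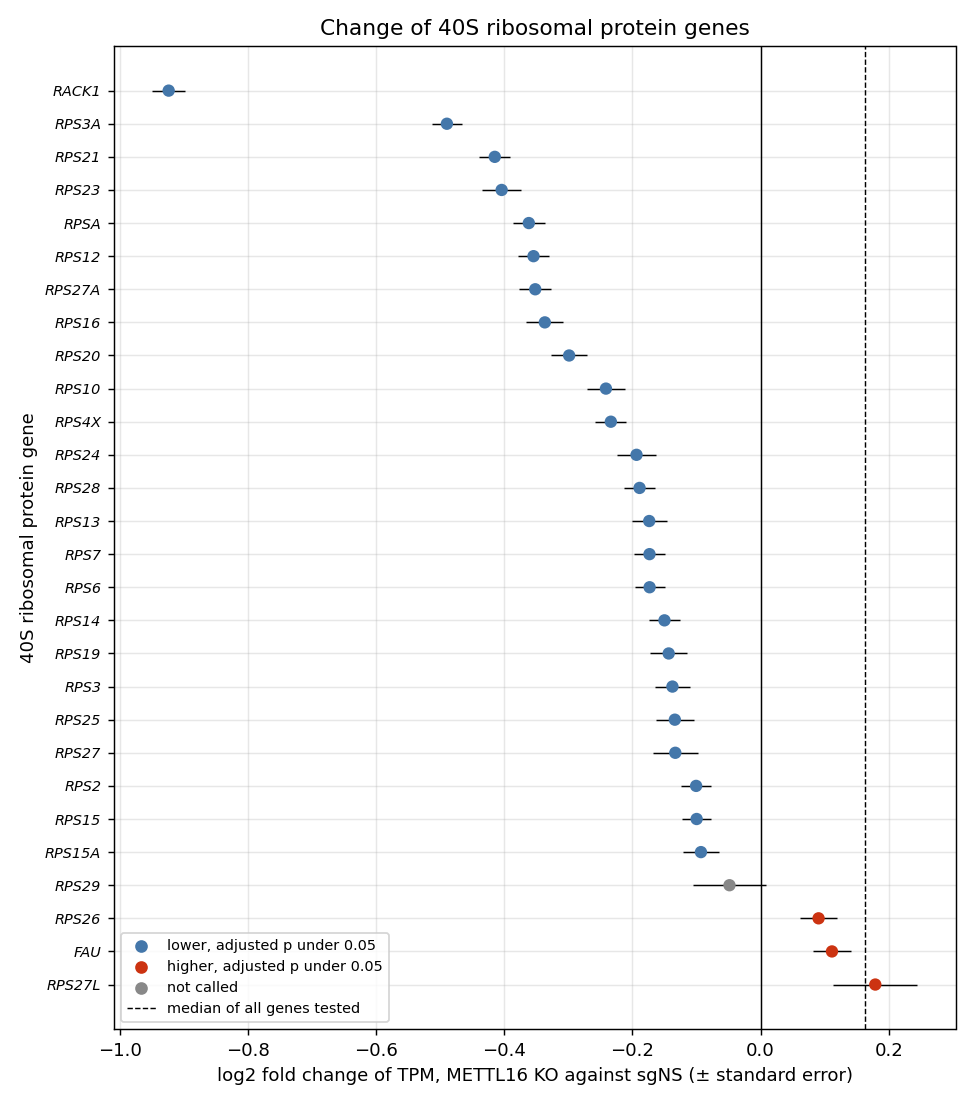
Log2 fold change of TPM, METTL16 KO against sgNS, for 28 of the 32 genes of the 40S subunit, with bars of 1 standard error from limma (2 libraries per group). The solid line is 0 and the dashed line the median of all genes tested, 0.16. RACK1 stands apart at -0.92, and most of the points lie left of 0.

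The starts of 6 genes are shown because they hold the fallen and the risen ends of the group and the pair of paralogs RPS27 and RPS27L. Each line gives the 15 bases before and the 15 from the annotated RefSeq start on GRCh38.p14, on the coding strand, with the longest run of a C and at least 4 further C or T that begins within 10 bases of the start in capitals.
RACK1 (chr5:181243892-181243921, minus): ggggggCTTTTCTCTCTCTCTTTCactgca
RPS3A (chr4:151099613-151099642, plus): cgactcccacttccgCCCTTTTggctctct
RPS27 (chr1:153990747-153990776, plus): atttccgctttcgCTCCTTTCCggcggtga
FAU (chr11:65122120-65122149, minus): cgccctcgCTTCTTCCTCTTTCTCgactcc
RPS26 (chr12:56041903-56041932, plus): gagacacataacctcgattttCTTCCgcca
RPS27L (chr15:63157463-63157492, minus): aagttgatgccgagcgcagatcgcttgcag
The run was 18 bases long in RACK1, which fell most, and 16 bases long in FAU, which rose on the deposited scale. It was 9 bases long in RPS27, 7 in RPS3A and 5 in RPS26. The starts used in Huh7 were not measured. No such run was in the window of RPS27L.

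A promoter entry was matched for 25 of the 32 genes, and 22 of these (88.0%) held such a run near the annotated start, against 33.3% of 27305 promoters. RPS4X, RPS27L and RPS29 did not, and the 20 bases from the RPS29 start were not found in the first 400 bases of any of its GENCODE transcripts, unlike those of the 6 starts printed above. The median log2 fold change was -0.18 with the run, over a range of -0.92 to 0.11. It was -0.05 for the 3 without it, over a range of -0.23 to 0.18, so the ranges overlap. This median of 3 is the value of RPS29 itself, whose start was not found in its transcripts. From 250 bases before to 50 after the start, searched on both strands, the letters CCGGAAG, the core bound by ETS factors, were present in 8 of the 25 (32.0%, against 10.5% of all promoters) and GGGCGG, the GC box, in 16 (64.0%, against 43.4%). AAGATGGCG, bound by YY1, was in 2 (8.0%, against 1.79%) and TATAAA, the TATA box, in 2 (8.0%, against 12.3%). The median log2 fold change was -0.20 with CCGGAAG and -0.17 without it. These matches are descriptions of the letters in a window.

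RACK1, a WD-repeat scaffold protein on the back of the head near the mRNA exit, where collided ribosomes are sensed, fell most. It lies on the minus strand of chromosome 5, from 181236897 to 181248096 on GRCh38. Its level was 1707 and 1735 TPM in sgNS and 913 and 902 TPM in METTL16 KO. Its mean fell by 47.3%. The KO libraries were far below the controls and the replicates of each group close to each other. The log2 fold change was -0.92 (standard error 0.026, limma adjusted p = 2.7e-10), and it ran from -1.09 to -0.83 over the 14 alternatives. RACK1 moved from 22nd to 25th of the 32 genes in level.

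RPS3A also fell by more than 20% on the deposited scale. This platform protein near the mRNA exit meets initiation factor eIF3, and its mRNA stood at 3737 and 3837 TPM in sgNS against 2702 and 2693 TPM in METTL16 KO (log2 fold change -0.49, limma adjusted p = 1.7e-08). The groups did not overlap. RPS3A had been at rank 6 of the 40S mRNAs in sgNS, and in METTL16 KO it was at rank 10. After quantile normalization its log2 fold change was -0.16.

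RPS21, RPS23 and RPSA lie on the body, and each fell by more than 20% on the deposited scale with no overlap between groups. After quantile normalization their log2 fold changes were -0.07, -0.48 and -0.20. RPS21, which sits against RPSA, was at 2892 and 2967 TPM in sgNS against 2197 and 2198 TPM in METTL16 KO (log2 fold change -0.41, limma adjusted p = 7.2e-08). RPS23, which lines the decoding centre and has a low level for a 40S gene, was at 421 and 427 TPM against 320.5 and 320.2 TPM (log2 fold change -0.40, limma adjusted p = 4.5e-07). RPSA, also known as the laminin receptor, was at 2309 and 2297 TPM against 1768 and 1818 TPM (log2 fold change -0.36, limma adjusted p = 2.7e-07). RPS23 shows that the falls were not kept to the genes with the highest TPM. Over the 32 genes the correlation of fold change with level was weak (Pearson r = -0.25, Spearman rho = -0.13, across genes of the same libraries).

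RPS12, RPS16 and RPS27A fell by like amounts. RPS12, of the beak, was the most abundant 40S mRNA in sgNS at 5063 and 4913 TPM and fell to 3872 and 3931 TPM, a log2 fold change of -0.35. RPS16, of the head, whose tail reaches the tRNA in the P site, stood at 1989 and 2036 TPM against 1631 and 1557 TPM, a log2 fold change of -0.34. With RPS27A, at -0.35, these fold changes had standard errors of 0.024 to 0.029, so their order is not resolved. After quantile normalization RPS12, RPS16 and RPS27A were at -0.10, -0.19 and -0.22.

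**Figure D2:**
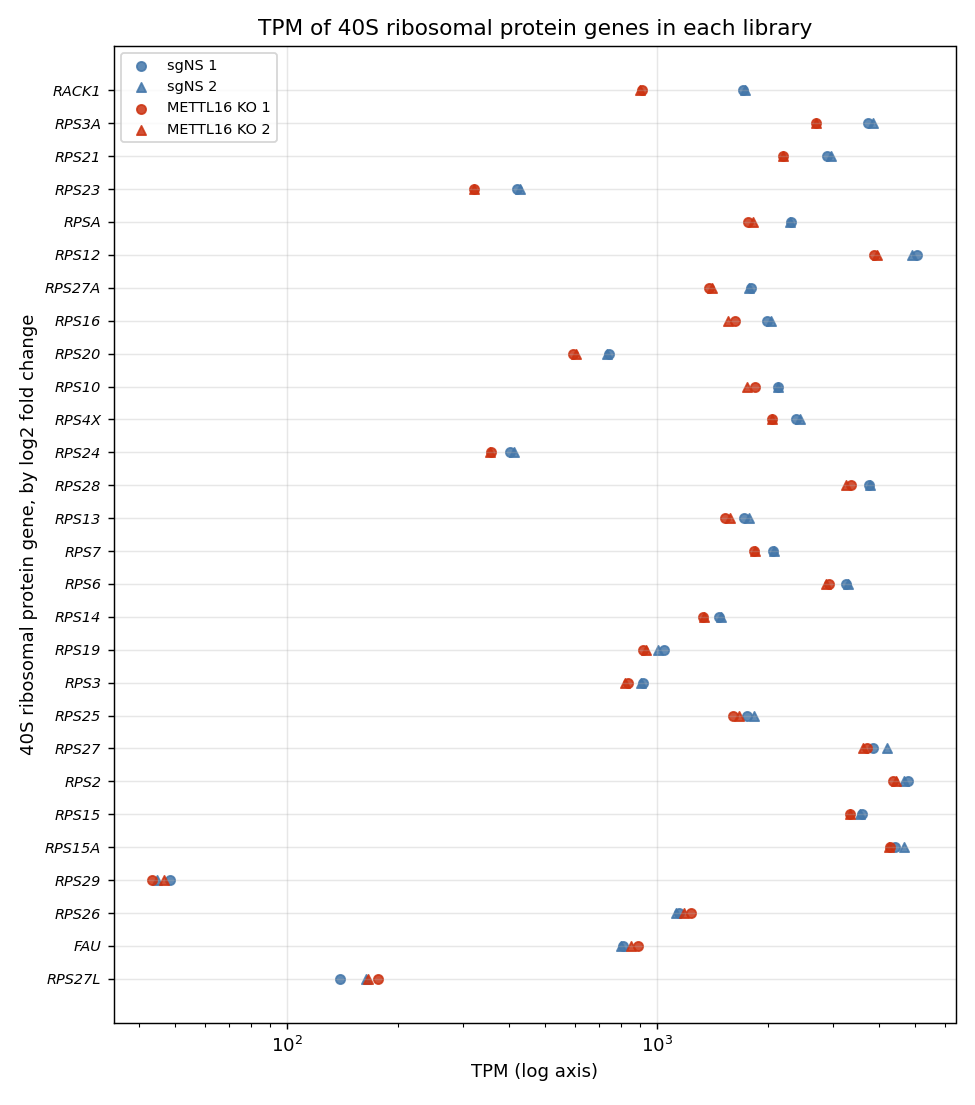
TPM of 28 of the 32 40S genes in each of the 4 libraries on a log axis, in the order of the fold change. Blue marks are sgNS and red marks METTL16 KO, with circles for replicate 1 and triangles for replicate 2. The red marks of RACK1 stand far to the left of the blue ones, and the marks of RPS29 interleave.

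Levels spanned a wide range and largely kept their order. RPS12, RPS2 and RPS15A led in sgNS, and RPS2, RPS15A and RPS12 led in METTL16 KO, where RPS2, of the mRNA entry channel, stood at 4363 and 4425 TPM. RPS2 had been at 4774 and 4649 TPM in sgNS, a small fall (log2 fold change -0.10, limma adjusted p = 0.0024) that was lost without limma's trend (adjusted p = 0.10) and became a rise of 0.22 after quantile normalization. RPS29, RPS27L, RPS24 and RPS23 had the 4 lowest levels in both groups. The rank correlation of the group means over the 32 genes was 0.976.

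By place on the subunit, counts are set against the 25.6% of all genes that fell and the 50.1% that rose. Of 14 head and beak genes tested of 15 listed, 12 fell and 0 rose (median log2 fold change -0.17). Of 17 body and platform genes of 18 listed, 15 fell and 2 rose (RPS26 and FAU), also with a median of -0.17. Of 10 genes for proteins along the mRNA channel, 7 fell and 2 rose, with a median of -0.14. The medians were -0.33, -0.34 and -0.31 after median-ratio scaling and -0.11, -0.02 and 0.05 after quantile normalization, where that of the mRNA channel genes turned sign. Differences between these places were not tested.

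Other head genes fell by less. RPS20 and RPS10, which are ubiquitinated when ribosomes collide, had log2 fold changes of -0.30 and -0.24. RPS28, at the mRNA exit, had -0.19, RPS19 -0.14 and RPS3, at the mRNA entry, -0.14. RPS25, which is used by some viral internal initiation sites, had -0.13 and RPS15, next to the decoding site, -0.10. All 7 of these genes fell, with limma adjusted p values from 2.6e-06 to 0.0020. After quantile normalization RPS28 (0.19) and RPS15 (0.27) rose instead, and RPS25 was at -0.0013. Without limma's trend the calls of RPS25 and RPS15 were lost (limma adjusted p = 0.067 and 0.096). Without moderation those of RPS10, RPS19 and RPS25 were lost (linear model adjusted p = 0.051, 0.066 and 0.11).

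Among the remaining body genes, RPS4X, the X-linked gene whose Y-linked copies were left out, had a log2 fold change of -0.23 on the deposited scale and of 0.02 after quantile normalization. RPS24, RPS13, RPS7 and RPS6, the substrate of the S6 kinases, had -0.19, -0.17, -0.17 and -0.17, and RPS14, the gene lost in the 5q- syndrome, had -0.15. RPS6 was the one of these 6 that rose after quantile normalization, to 0.15. There RPS24 (-0.23) and RPS7 (-0.05) still fell. RPS4X, RPS13 (-0.03) and RPS14 (-0.02) lost their calls (limma adjusted p = 0.43, 0.18 and 0.39). The RPS13 call was also lost without moderation (linear model adjusted p = 0.053). RPS15A stood at 4406 and 4660 TPM in sgNS against 4264 and 4234 TPM in METTL16 KO (log2 fold change -0.09, limma adjusted p = 0.011). The RPS15A call was lost without sgNS replicate 2 (-0.05), without METTL16 KO replicate 1 (-0.10) and without METTL16 KO replicate 2 (-0.09). It was also lost without limma's trend (limma adjusted p = 0.16) and without moderation (linear model adjusted p = 0.19). The same held with all genes above 0 in at least 1 library (limma adjusted p = 0.082). RPS15A rose by 0.20 after quantile normalization.

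RPS27 and RPS27L encode near-identical zinc-binding proteins that can replace each other on the subunit, and RPS27L is known as a target of p53. RPS27 stood at 3844 and 4188 TPM in sgNS against 3700 and 3618 TPM in METTL16 KO (log2 fold change -0.13, limma adjusted p = 0.0054). RPS27L stood at 139 and 164 TPM in sgNS against 176 and 166 TPM in METTL16 KO (log2 fold change 0.18, limma adjusted p = 0.028). The second sgNS library and the second METTL16 KO library were close to each other for RPS27L, and the groups nearly touch. Its call was lost without sgNS replicate 1 (0.06), without METTL16 KO replicate 1 (0.13) and without METTL16 KO replicate 2 (0.22). It was also lost without the HIST genes (0.11, limma adjusted p = 0.14) and after quantile normalization (0.10, limma adjusted p = 0.23). The same held for RPS27L without limma's trend (limma adjusted p = 0.16) and without moderation (linear model adjusted p = 0.34). With all genes above 0 in at least 1 library the RPS27L call was lost too (limma adjusted p = 0.15). After median-ratio scaling its fold change was 0.01. The RPS27 call was lost without limma's trend (limma adjusted p = 0.11) and without moderation (linear model adjusted p = 0.22). It was also lost with all genes above 0 in at least 1 library (limma adjusted p = 0.071). Nor did it hold without METTL16 KO replicate 2 (-0.12), and RPS27 was at 0.21 after quantile normalization.

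Within a library, the ratio of the paralogs does not depend on a factor for the whole library. RPS27L stood at 3.61% and 3.92% of RPS27 in sgNS and at 4.77% and 4.58% in METTL16 KO. The log2 ratio was higher by 0.31 in METTL16 KO, against SDs of 0.082 and 0.042 (n = 2 each), and lower by 0.11 after quantile normalization. How reads that match both paralogs were divided between them was not tested.

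RPS27A and FAU are both made as fusions with a ubiquitin-like protein, and they moved apart. RPS27A, which carries ubiquitin itself, stood at 1793 and 1780.7 TPM in sgNS against 1388 and 1413 TPM in METTL16 KO (log2 fold change -0.35, limma adjusted p = 3.1e-07). FAU, which carries the ubiquitin-like FUBI ahead of RPS30, stood at 811 and 801 TPM in sgNS against 890 and 853 TPM in METTL16 KO (log2 fold change 0.11, limma adjusted p = 0.0054). The groups did not overlap for either gene. Without METTL16 KO replicate 1 the FAU call was lost (0.08), and after median-ratio scaling FAU was at -0.05. The FAU call was also lost without the HIST genes (0.05, limma adjusted p = 0.17). The same held without limma's trend (limma adjusted p = 0.094) and without moderation (linear model adjusted p = 0.11).

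RPS26, of the mRNA exit channel, stood at 1149 and 1127 TPM in sgNS against 1235 and 1189 TPM in METTL16 KO (log2 fold change 0.09, limma adjusted p = 0.013). Its call was lost without sgNS replicate 2 (0.08) and without METTL16 KO replicate 1 (0.06). It was also lost without the HIST genes (0.02, limma adjusted p = 0.43) and without limma's trend (limma adjusted p = 0.15). The same held without moderation (linear model adjusted p = 0.13) and with all genes above 0 in at least 1 library (limma adjusted p = 0.052). RPS26 fell after median-ratio scaling (-0.08, limma adjusted p = 0.033). RPS29, a small zinc-binding head protein, stood at 48.3 and 44.6 TPM in sgNS against 43.3 and 46.5 TPM in METTL16 KO. Its groups overlapped, with a log2 fold change of -0.05 (limma adjusted p = 0.46), and after median-ratio scaling it fell by 0.21 (limma adjusted p = 0.0062).

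Loss of 1 copy of several 40S genes causes Diamond-Blackfan anaemia. Of 10 such genes, among them RPS7, RPS10, RPS19, RPS24 and RPS26, 8 fell and 1 rose, against 25.6% and 50.1% of all genes (median log2 fold change -0.14, range -0.24 to 0.09). The median was 0.05 after quantile normalization. The most often mutated of them, RPS19, was at 1044 and 1007 TPM in sgNS against 921 and 936 TPM in METTL16 KO. Its groups did not overlap, and its mean fell by 9.47%.

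Summed over the 32 genes, the 40S mRNAs took 7.30% and 7.39% of all TPM in sgNS and 6.25% and 6.24% in METTL16 KO. The means were 7.34% ± 0.065 and 6.25% ± 0.0094 (SD, n = 2 each), a difference of -1.10 percentage points and a log2 ratio of -0.23. The 60S genes, of the large subunit, took 10.8% and 11.0% in sgNS and 9.58% and 9.62% in METTL16 KO, a log2 ratio of -0.18. The ratio of the 40S to the 60S sum was 0.674 in each of the sgNS libraries and 0.653 and 0.648 in METTL16 KO. The log2 ratio was lower by 0.052 in METTL16 KO, and this ratio does not depend on a factor for the whole library. The groups did not overlap, and an exact permutation test could not go below 0.33 here. Without RACK1, FAU, RPSA and RPS27L the difference of the log2 ratio was -0.039. No 60S gene was left out in this way. Of 53 60S genes tested 40 fell and 7 rose. The abundant RPL41 and RPLP1 were among those that rose (log2 fold changes 0.19 and 0.12). After median-ratio scaling RPL41 was at 0.02 and RPLP1 at -0.05. Gene by gene the medians were close, at -0.17 for the 40S and -0.18 for the 60S genes. The lower ratio is thus one of sums, and whether it holds without RPL41 and RPLP1 was not tested.

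**Figure D3:**
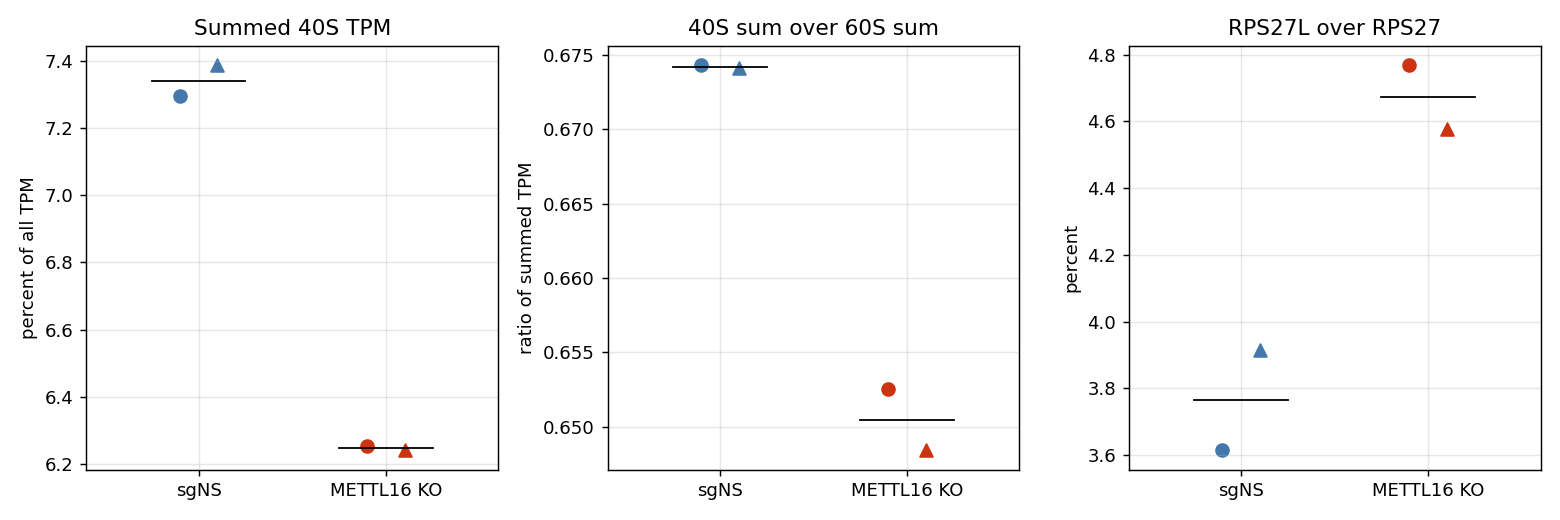
Left, summed TPM of the 32 genes of the 40S subunit as a percentage of all TPM. Centre, the ratio of the 40S to the 60S sum. Right, RPS27L as a percentage of RPS27. Each point is 1 library, with circles for replicate 1 and triangles for replicate 2, and lines are group means; the axes do not start at 0. The 40S share is 7.30% and 7.39% in sgNS against 6.25% and 6.24% in METTL16 KO.

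To see how unequal the falls were, each gene was also expressed relative to the 40S sum of its own library and tested again with limma. This scaling was chosen after the values had been seen. On it 10 of the 32 genes were lower, against 14.6% of all genes, and 16 were higher, against 68% of all genes. The 32 genes are their own reference here, so unequal changes must place some below it and some above. The shares of all genes on this scale include the fall of the 40S sum itself. RACK1, RPS3A, RPS21, RPS23, RPSA, RPS12, RPS27A and RPS16 were among the lower ones. The median of all genes was 0.39 on this scale. The other 6, RPS20, RPS10, RPS4X, RPS24, RPS28 and RPS13, did not pass the test. Without METTL16 KO replicate 2 the counts were 9 lower and 10 higher, without limma's trend 5 and 6, and without moderation 7 and 7.

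RACK1 made up 2.34% and 2.35% of the 40S sum in sgNS and 1.46% and 1.45% in METTL16 KO, a log2 difference of -0.69 relative to the sum (standard error 0.024, limma adjusted p = 2.6e-08). At the other end, RPS26, FAU and RPS27L were higher relative to the sum by 0.32, 0.34 and 0.41. RPS4X, at 3.27% and 3.30% against 3.29% and 3.28%, had a log2 difference of -0.00054 (standard error 0.023).

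Some 40S genes carry small nucleolar RNAs (snoRNAs), guides of rRNA modification, in their introns. In GENCODE release 44, 10 of the 32 genes held a snoRNA on the same strand, among them RACK1 (SNORD95 and SNORD96A), RPS3A (SNORD73A and SNORD73B), RPSA, RPS12, RPS20, RPS13, RPS3 and RPS2. All 10 fell (median log2 fold change -0.35, range -0.92 to -0.10). Of the 22 other genes 17 fell and 3 rose, with a median of -0.15 and a range of -0.41 to 0.18, and of all genes 25.6% fell and 50.1% rose. After quantile normalization the medians were -0.14 for the hosts and 0.01 for the others, and the difference between them was not tested. The ranges overlap, and host genes without a large fall (RPS2 at -0.10, RPS3 at -0.14) and genes with a large fall that host none (RPS21 at -0.41, RPS23 at -0.40) are among them. The snoRNAs themselves are not analysed here.

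The 32 genes lie on 17 chromosomes, with 6 on chromosome 19. Ribosomal protein genes have many processed pseudogenes, near copies to which reads can be assigned. The number of pseudogenes named after a gene ran from 0 (RPS27L) to 74 (RPSA), with a median of 11 and 53 for RPS3A. Over the 32 genes this number showed a weak relation to the fold change (Pearson r = -0.07, Spearman rho = -0.06, across genes). How the reads of pseudogenes were assigned was not tested.

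Other genes of the ribosome cycle are set beside the 40S genes by their counts, to be read against the 25.6% of all genes that fell and the 50.1% that rose. Of 53 60S genes tested, 40 fell and 7 rose (median log2 fold change -0.18). Of 13 other mRNAs with a TOP start, 8 fell and 2 rose, with a median of -0.14. EIF3L, a subunit of eIF3, fell among them (344 and 353 TPM against 200.3 and 202 TPM, log2 fold change -0.79), while PABPC1, which binds poly(A) tails, rose (510 and 518 TPM against 869 and 845 TPM, log2 fold change 0.74). Of the 14 eIF3 genes 6 fell and 7 rose. After median-ratio scaling 7 fell and 3 rose, against 36.5% and 36.4% of all genes. EIF3C (0.67 and 0.41 TPM in sgNS) and EIF3CL (311 and 297 TPM in sgNS) were counted apart, and both rose on the deposited scale. How reads were divided between these genes was not tested.

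Genes that build or monitor the 40S subunit were mostly higher. Of 56 factors of 40S maturation tested of 63 listed, 4 fell and 42 rose (median log2 fold change 0.34). LTV1, a factor of late 40S assembly that leaves the head before the subunit is used, stood at 65.8 and 64.2 TPM in sgNS against 126 and 120 TPM in METTL16 KO (log2 fold change 0.92, limma adjusted p = 1.0e-08). RIOK1, a kinase of the last cytoplasmic steps, had 0.85, while NOL6, of the early nucleolar particle, had -0.68 (limma adjusted p = 1.0e-05) and NAT10, which acetylates 18S rRNA, -0.40. After median-ratio scaling 10 of the 56 fell and 31 rose, against 36.5% and 36.4% of all genes, with a median of 0.17. Of 8 factors that act on stalled or collided ribosomes, 6 rose and 1 fell, with a median of 0.34, and among them ASCC2 had 0.78 and USP10 -0.10. For the small subunit of the mitochondrial ribosome, 4 of 28 genes fell and 21 rose, with a median of 0.29 (0.13 after median-ratio scaling). Of all genes tested, 50.1% rose on the deposited scale.

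**Figure D4:**
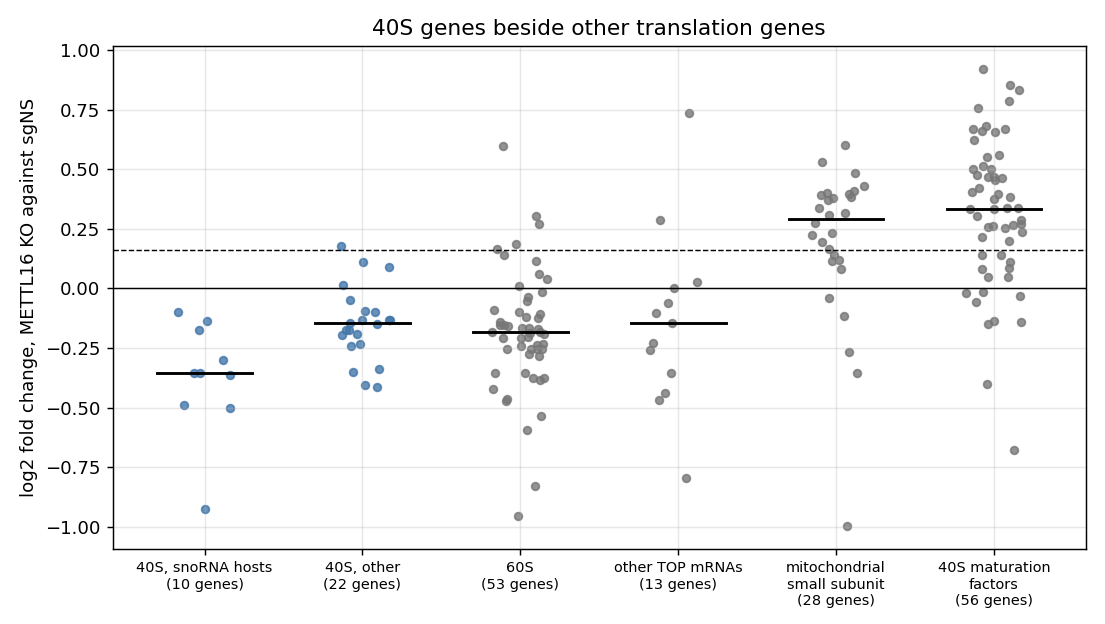
Log2 fold change of TPM, METTL16 KO against sgNS, for each tested gene of 6 lists. Points are genes, bars the medians of the lists, the solid line is 0 and the dashed line the median of all genes tested, 0.16. The medians are -0.35 and -0.15 for 40S genes with and without a snoRNA, -0.18 for 60S genes and 0.34 for factors of 40S maturation.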

How the data were processed

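RNA-seq of 4 Huh7 libraries (2 sgNS, 2 METTL16 KO) was used. The authors deposited 1 table of TPM per gene symbol. Per the study's methods, reads were trimmed with Cutadapt, mapped to GRCh38 with STAR and quantified with RSEM; versions are not given in the sources used here. The unit is named RPKM in the methods, yet every column sums to 1000000. The labels name both an mRNA kit and ribosomal RNA depletion. Columns were matched to samples by name, and 0 columns were left out.

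log2(TPM + 0.1) of 11971 genes (mean of at least 1 TPM) was fitted with limma 3.58.1 (R 4.3.3; lmFit, and eBayes with a trend, no block), called at a Benjamini-Hochberg adjusted p under 0.05. The fit was tested on simulated data. Of the 32 genes, 4 enter the counts, medians and sums and are not reported here singly. The others could be named, with values per library for the 6 lowest and 6 highest fold changes, the 4 nearest 0, RPSA, FAU, RACK1, RPS27, RPS27L and RPS27A; RPS2, RPS12, RPS16 and RPS19 were added after their values were seen. Of other lists up to 2 genes in each direction were named. Genes and lists were chosen with earlier results of these data known. Positions and snoRNAs are from GENCODE release 44, promoters from RefSeq. Scripts used Python 3.11.15, numpy 2.4.6, pandas 2.3.3 and matplotlib 3.10.9.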

Additional observations from a re-analysis of the deposited data

How the results depend on the processing

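Counts of 40S genes that fell were 25 to 27 when each library was left out and 27 with the replicate block, and 22 and 20 without limma's trend and without moderation. They were 16 after quantile normalization and 1 with a 1.5-fold threshold. The count of 40S genes that rose, 3 as reported, was the least stable. It was 0 after median-ratio scaling, 0 without the HIST genes, 0 without trend, 0 without moderation, 0 with a 1.5-fold threshold, 1 with all genes above 0, 1 without RACK1, FAU, RPSA and RPS27L, 10 after quantile normalization, and 0 to 2 with each library left out. The median log2 fold change was -0.34 after median-ratio scaling, -0.042 after quantile normalization and -0.24 without the HIST genes, and -0.19 to -0.17 with each library left out. The difference of the summed share was -1.88 percentage points after median-ratio scaling, -1.54 without the HIST genes, -0.97 without the 4 genes named above and -1.14 to -1.05 with each library left out. The difference of the log2 ratio of RPS27L to RPS27 was -0.11 after quantile normalization and 0.25 to 0.37 with each library left out. The difference of the log2 ratio of the 40S to the 60S sum was -0.039 without the 4 genes and -0.056 to -0.047 with each library left out. Its dependence on single 60S genes was not tested. Relative to the 40S sum, 5 genes were lower and 6 higher without trend, 7 were higher without moderation, and 9 to 11 were lower and 10 to 14 higher with each library left out. These scalings change the reference that all genes share, and the cause of the other changes was not tested.

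Genes described singly changed sign as follows. After median-ratio scaling FAU was at -0.054 and RPS26 at -0.075. After quantile normalization RPS15 was at 0.27, RPS2 at 0.22, RPS27 at 0.21, RPS15A at 0.20, RPS28 at 0.19, RPS6 at 0.15 and RPS4X at 0.017. RPS29 was at 0.010 without sgNS replicate 1 and at 0.0029 without METTL16 KO replicate 1. METTL16 was at -0.68 to -0.45 throughout.

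Replicate numbers are shared by the groups, but the labels do not say that they mark a batch, and with 2 pairs the correlation of same-numbered deviations was -0.044 over all genes and -0.50 over the 40S genes. With the replicate block 27 genes fell and 3 rose, as without it. A member set without pseudogenes by name was not run, since the rule had found none. TPM values keep no depth, so what could be detected for low genes such as RPS29 is not known.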
